A study of Homo sapiens with 4 samples.

Results

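E-cadherin-low CD133-low PC14 cells, labelled PC14 E-CD133-, were set against the other 3 sorted subpopulations of the same line to find the genes that single them out. A gene was chosen when its signal was at least 2-fold above, or at least 2-fold below, its signal on each of the other 3 arrays, and 228 of 19775 named genes met that rule. Of these, 67 were higher and 161 were lower in E-cadherin-low CD133-low cells. The rule used these 4 arrays, so the ratios below describe the members and are not tests of them.

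PC14 is an established line of human non-small-cell lung cancer. Cells were first sorted for high or low E-cadherin, the adhesion protein of epithelial cells. Each fraction was then sorted for high or low fluorescence from a lentiviral reporter, whose green fluorescent protein is under control of CD133's P1 promoter. Total RNA from each fraction was hybridised to 1 biotin-labelled Affymetrix array, so there is 1 array per group, no replicate and no p-value. All 4 groups carry the reporter and, by the labels, differ in these gates alone: E-cadherin-high CD133-high (PC14 E+CD133+, called double-high here), E-cadherin-low CD133-high (PC14 E-CD133+), E-cadherin-high CD133-low (PC14 E+CD133-) and E-cadherin-low CD133-low (double-low). CD133 status therefore reports promoter activity of a vector and not surface protein.

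Carcinoma cells that lose E-cadherin commonly lose other junction proteins as well, a shift known as the epithelial-mesenchymal transition, and CD133 is widely used to mark stem-like tumour cells. The labels describe the double-low cells as mesenchymal and not stem-like. Bone morphogenetic proteins (BMPs), members of the TGF-beta family, signal through receptor kinases to SMAD proteins and raise the ID genes together with their own inhibitors. Cancer-testis antigens are proteins normally made in germ cells and switched on in many tumours, often when DNA methylation at their promoters is lost.

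Values are deposited intensities (signals) on a linear scale, and each gene is represented by its brightest probe set. The floor of an array is the median of its probe sets other than controls, which was 57.0 on the double-low array and 53.7 to 60.3 on all 4. Lower signals were set to the floor, so a ratio with 1 side at the floor is written "at least". The margin of a gene is its smallest ratio over the other 3 arrays. Above the floor of at least 1 array lay 14083 genes, called measured here. The double-low array was the highest of the 4 for 24.1% of measured genes and the lowest for 22.7%. The trimmed mean signal was 500.1 on each array, and the actin 3′ over 5′ ratio was 1.53 on the double-low array against 1.57 to 1.78 on the others. The 18S ribosomal RNA signal at the 5′ end was 7226 on the double-low array, the lowest of the 4, against 8619 to 14297.

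The sorted marker followed its label. CDH1, which encodes E-cadherin, read 528 in double-low cells and 347 in E-cadherin-low CD133-high cells, against 5548 in double-high and 3546 in E-cadherin-high CD133-low cells. Both E-cadherin-low arrays lay below both E-cadherin-high arrays. ZEB1, a repressor of CDH1, read 1056 in double-low cells, close to the 1301 of E-cadherin-low CD133-high cells and above the 168 and 64.8 of the E-cadherin-high arrays. VIM, the mesenchymal filament protein vimentin, read 12938, between the 12448 of double-high and the 20200 of E-cadherin-low CD133-high cells, while E-cadherin-high CD133-low cells read 1740. PROM1, the gene of CD133, lay below the floor on all 4 arrays, so the arrays do not check the CD133 label.

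FABP7 stood farthest apart among the higher genes. It encodes the brain-type fatty acid binding protein, a carrier known from radial glia and from several tumours. Its signal was 7086 in double-low cells, 377 in E-cadherin-high CD133-low cells, and 37.5 and 28.9 in double-high and E-cadherin-low CD133-high cells, both below the floor. The double-low array was 18.8-fold above the next highest array. A second probe set, which the rule did not use, read 1304 in double-low cells against 9.07, 21.9 and 83.1 on the double-high, E-cadherin-low CD133-high and E-cadherin-high CD133-low arrays. It also passed 2-fold against all 3. In RNA from a sorted fraction, more cells with a transcript and more transcript per cell cannot be told apart.

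MAGEC2 and MAGEC1 are neighbouring cancer-testis antigen genes on the X chromosome, and both were far higher in double-low cells. MAGEC2 read 539 there and 32.4, 31.4 and 50.9 on the double-high, E-cadherin-low CD133-high and E-cadherin-high CD133-low arrays, all below the floor, and the margin was at least 8.94-fold. MAGEC1 read 254 in double-low cells against 36.2, 65.3 and 31.8 in the same order, a margin of 3.89-fold. Only E-cadherin-low CD133-high cells, among the other 3, were above the floor for MAGEC1. The other MAGEC2 probe set was below the floor on all 4 arrays. The genes are related in sequence, and cross-hybridisation between their probe sets was not tested.

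The promoters of these 3 genes are printed because they are the gene of largest margin and the related MAGEC pair, and because they differ in the number of CG pairs, the sites of DNA methylation. The arrays measured RNA and not methylation. Each run holds the 250 bases before the RefSeq start (GRCh38.p14), read 5′ to 3′ on the gene's strand, with every CG in capitals. FABP7 lies at chr6:122779466-122779715 on the plus strand, MAGEC2 at chrX:142205291-142205540 on the minus strand and MAGEC1 at chrX:141903644-141903893 on the plus strand.
FABP7: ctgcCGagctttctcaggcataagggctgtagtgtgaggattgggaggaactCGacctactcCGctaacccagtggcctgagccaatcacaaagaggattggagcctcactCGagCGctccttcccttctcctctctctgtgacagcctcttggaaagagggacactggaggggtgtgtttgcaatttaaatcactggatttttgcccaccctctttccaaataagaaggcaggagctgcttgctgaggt
MAGEC2: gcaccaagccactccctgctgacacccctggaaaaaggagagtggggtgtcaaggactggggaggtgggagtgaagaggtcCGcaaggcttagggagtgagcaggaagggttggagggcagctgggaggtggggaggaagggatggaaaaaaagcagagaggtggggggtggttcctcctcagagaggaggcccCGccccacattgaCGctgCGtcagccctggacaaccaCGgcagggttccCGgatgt
MAGEC1: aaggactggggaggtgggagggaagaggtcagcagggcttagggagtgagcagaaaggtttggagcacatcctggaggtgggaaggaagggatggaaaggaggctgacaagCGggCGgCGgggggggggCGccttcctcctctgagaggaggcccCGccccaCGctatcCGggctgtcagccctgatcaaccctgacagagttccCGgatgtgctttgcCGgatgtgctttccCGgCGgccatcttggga
FABP7 has 5 CG pairs in this window, MAGEC2 has 6 and MAGEC1 has 11, against a median of 20 in the promoters of measured genes. The MAGEC1 and MAGEC2 windows share a run of 20 bases, aaggactggggaggtgggag, and 167 of 199 aligned bases (83.9%) were identical.

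The 67 higher genes were 0.476% of the 14083 measured genes, and the 161 lower genes were 1.14%. These are the shares to set beside the counts of called genes in each list below. By the same rule 72 genes were higher in double-high cells, 244 in E-cadherin-low CD133-high cells and 38 in E-cadherin-high CD133-low cells. The median margin of the 67 was 2.36-fold, and 7 genes had a margin of at least 4-fold. All 3 other arrays were at the floor for 15 of the 67, and 31 were above the floor on all 4 arrays. The next highest array was E-cadherin-low CD133-high for 31 genes, E-cadherin-high CD133-low for 28 and double-high for 8. Of the 28 higher genes with another probe set above the floor, 21 had one in the same direction against all 3 arrays, 10 had one that passed 2-fold, and 0 had one in the opposite direction.

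**Figure D1:**
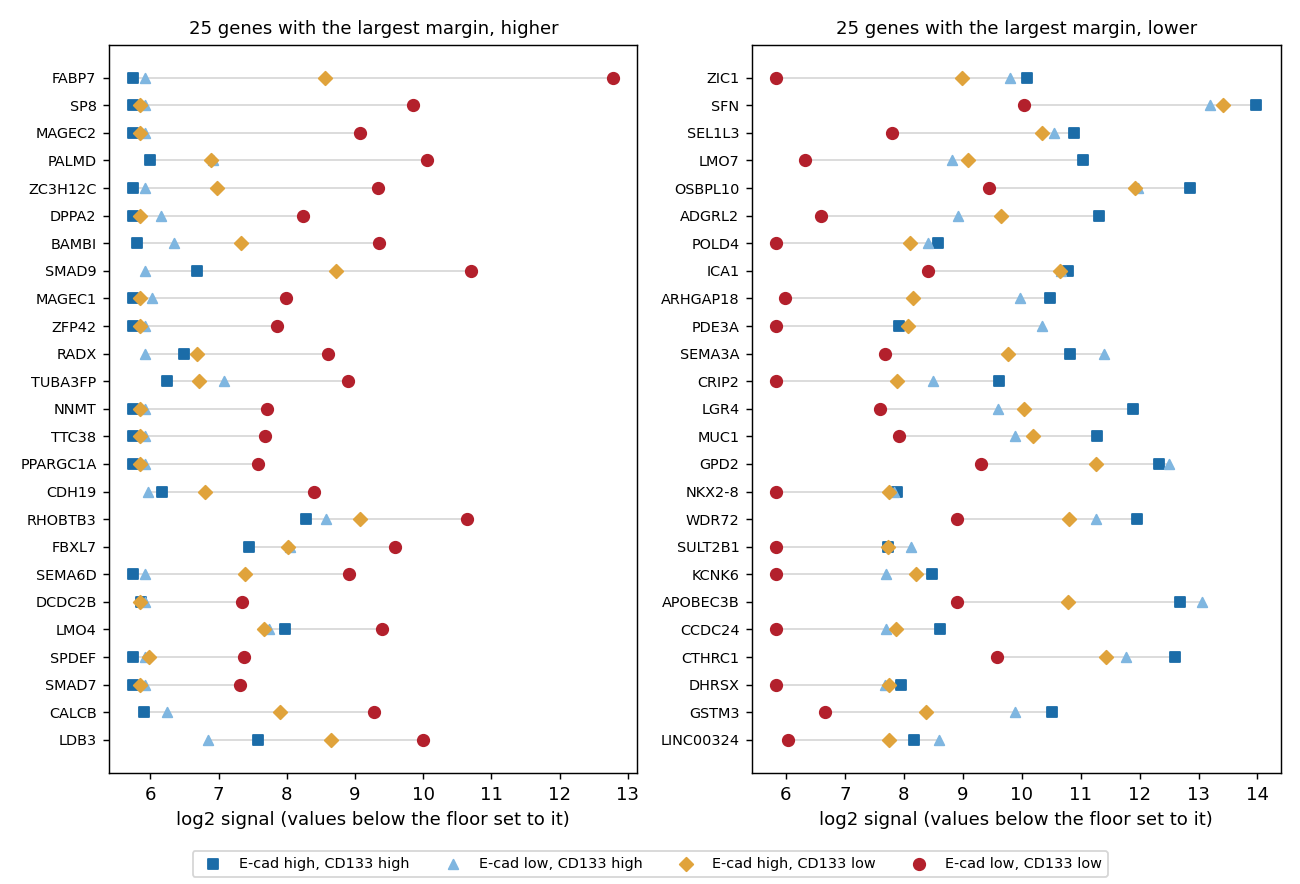
Signals of the 25 genes with the largest margin in each direction, on the log2 scale, with signals below the floor set to it; each point is 1 array and the line spans the 4. On the left the double-low array lies to the right of the other 3 for every gene, farthest for FABP7 (7086 against at most 377), and on the right it lies to their left, as for SFN (1054 against at least 9382).

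Transcription factors of development and of pluripotent cells were among the genes with the largest margins. SP8, a zinc-finger factor of limb and forebrain development, read 922 in double-low cells and 15.0, 49.8 and 18.2 on the double-high, E-cadherin-low CD133-high and E-cadherin-high CD133-low arrays, so that the other 3 were below the floor and the margin was at least 15.3-fold. DPPA2, a protein of pluripotent and germ cells, read 302 against 22.6, 71.5 and 42.0 in the same order, a margin of 4.23-fold. ZFP42, also known as REX1 and used to mark pluripotent stem cells, read 231 against 20.4, 46.3 and 28.7, a margin of at least 3.84-fold. By the probe sets used, the 3 genes had in common a clear double-low signal over signals at or near the floor elsewhere. The other SP8 probe set was below the floor on all 4 arrays. Of the 2 other ZFP42 probe sets, 1 read 95.4 in double-low cells, under 2-fold over the floor of the others, and 1 was below the floor on all 4. In the list of stem-cell and tumour-initiating cell genes, ZFP42 was the 1 higher member of 23 measured (4.35%). LGR4 and ALDH1A3 were lower (8.70%), where 0.476% of all measured genes were higher and 1.14% lower. SALL4 and LIN28B, other factors of early embryonic cells in that list, read 1243 and 2001 in double-low cells and had no margin of 2-fold.

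Other transcriptional regulators were also higher. GATA3, a lineage factor of T cells and of luminal breast epithelium, read 3523 in double-low and 1470 in E-cadherin-high CD133-low cells, against 73.7 in double-high and 154 in E-cadherin-low CD133-high cells. Both CD133-low arrays lay above both CD133-high arrays, and the double-low margin was 2.40-fold. The related GATA2 read 2788 in double-low cells, 1330 in E-cadherin-high CD133-low cells, and 430 and 513 on the double-high and E-cadherin-low CD133-high arrays. Its order over the arrays was like that of GATA3, with a margin of 2.10-fold. DLX2, a homeobox factor of the forebrain and branchial arches, read 3053 against 718, 757 and 1235 on the double-high, E-cadherin-low CD133-high and E-cadherin-high CD133-low arrays. SPDEF, an ETS-family factor of secretory epithelia, read 166 against at most 62.8, but neither of its other 2 probe sets above the floor had the same direction. LMO4, a LIM-domain cofactor, read 672 against 203 to 251, and its other measured probe set passed 2-fold as well.

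Of the TGF-beta and BMP list, 4 of 27 measured genes (14.8%) were higher and 0 were lower, beside 0.476% and 1.14% of all measured genes. BAMBI, a membrane pseudoreceptor that dampens TGF-beta and BMP signals, read 652 in double-low cells and 55.9, 81.1 and 161 in double-high, E-cadherin-low CD133-high and E-cadherin-high CD133-low cells. SMAD9, one of the SMADs that BMP receptors phosphorylate, read 1666 against 103, 41.6 and 421 in that order. In both genes the E-cadherin-high CD133-low array was the next highest, 4.05-fold below for BAMBI and 3.95-fold below for SMAD9. SMAD7, an inhibitory SMAD, read 159 against 38.5, 4.98 and 41.9, all below the floor, a margin of at least 2.64-fold. The ligand gene BMP7 read 707 in double-low cells, 329 in double-high cells, 107 in E-cadherin-low CD133-high cells and 349 in E-cadherin-high CD133-low cells. BMP7 thus had like signals in both E-cadherin-high arrays, a lower signal in E-cadherin-low CD133-high cells, and a margin of 2.03-fold in double-low cells. Of 3 further BMP7 probe sets above the floor, 2 had the same direction and 0 passed 2-fold.

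**Figure D2:**
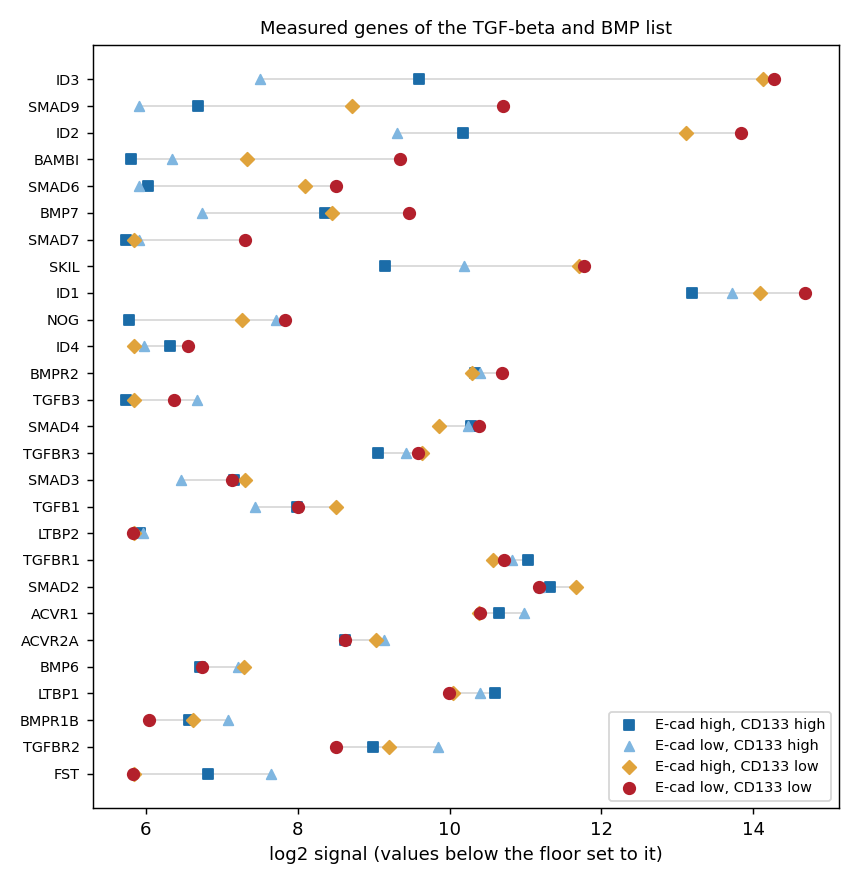
Signals of the 27 measured genes of the TGF-beta and BMP list on the log2 scale, with signals below the floor set to it; each point is 1 array. BAMBI, SMAD9, BMP7 and SMAD7 stand clear of the other 3 arrays, while for ID2, ID3 and SMAD6 both CD133-low arrays lie to the right of both CD133-high arrays.

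In the same list, the target genes ID1, ID2 and ID3 were higher on both CD133-low arrays than on both CD133-high arrays. ID1, an inhibitor of helix-loop-helix factors, read 26146 in double-low cells, 17411 in E-cadherin-high CD133-low, 13431 in E-cadherin-low CD133-high and 9339 in double-high cells. ID2 read 14620 and 8892 in the CD133-low arrays (double-low, then E-cadherin-high), against 636 and 1160 in the CD133-high arrays. ID3 read 19862 and 17878 against 181 and 771 in the same order. None of the 3 ID genes had a 2-fold margin over E-cadherin-high CD133-low cells. ID4, with signals near the floor, did not have their order. It read 93.8 in double-low cells and 43.2, below the floor, in E-cadherin-high CD133-low cells, against 79.7 in double-high and 63.2 in E-cadherin-low CD133-high cells. SMAD6, another inhibitory SMAD, read 363 in double-low and 275 in E-cadherin-high CD133-low cells, with 65.6 in double-high cells and 43.0, below the floor, in E-cadherin-low CD133-high cells. Not every inhibitor had that order: NOG, a BMP antagonist, read 228 in double-low and 154 in E-cadherin-high CD133-low cells against 55.1 and 210 in double-high and E-cadherin-low CD133-high cells. FST, an activin and BMP antagonist, was below the floor on both CD133-low arrays and read 113 and 202 on the CD133-high arrays. Receptor genes were not among the members: BMPR2 read 1648 against 1262 to 1347, and BMPR1B read 65.7 against 95.0 to 136. The double-low array was the highest for 13 of the 27 genes and the lowest for 5, with a median log2 ratio over the mean of the other 3 of 0.26, against -0.02 over all measured genes. That median was 0.02 when probe sets shared between transcripts or genes were left out, and 0.03 with the floor at the 65th percentile.

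In the GC-rich promoter of BAMBI the sequence GGCGCC, a GC box of BMP-responsive elements, occurs 3 times, and its window is printed because BAMBI led the called members of the BMP list. It lies at chr10:28677271-28677520 on the plus strand of GRCh38.p14 (RefSeq, 250 bases before the start), with GGCGCC in capitals. This motif reads the same on both strands.
BAMBI: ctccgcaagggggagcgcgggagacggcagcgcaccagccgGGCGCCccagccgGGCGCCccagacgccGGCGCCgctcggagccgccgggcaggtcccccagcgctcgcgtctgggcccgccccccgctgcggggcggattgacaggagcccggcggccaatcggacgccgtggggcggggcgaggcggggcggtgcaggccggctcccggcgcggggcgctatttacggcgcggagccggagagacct
The promoters of SMAD9 and SMAD7 hold 0 matches. Among higher genes with a promoter in the table, 30.8% of 52 hold GGCGCC, against 25.1% of measured genes and 16.1% of all promoters of this length, so the letters are common in this promoter class.

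Wnt and Notch components were mixed. DKK1, a secreted Wnt antagonist, read 4879 in double-low cells, 2289 in E-cadherin-low CD133-high, 1353 in E-cadherin-high CD133-low and 375 in double-high cells. Both E-cadherin-low arrays exceeded both E-cadherin-high arrays, and the margin was 2.13-fold. FZD1, a Wnt receptor, read 692 against 116, 245 and 282 in double-high, E-cadherin-low CD133-high and E-cadherin-high CD133-low cells. Another FZD1 probe set did not share the direction, at 46.8, below the floor, against 23.9, 41.0 and 62.7 in that order. LGR4, a receptor for R-spondins that strengthen Wnt signals, was among the lowest members, with 194 in double-low cells against 3813, 774 and 1049 in the same order. In all, 2 of 29 measured Wnt genes (6.90%) were higher and 1 (3.45%) was lower, beside 0.476% and 1.14% of all measured genes. HEY1, a Notch target, read 274 against 57.9, 115 and 74.7, and the receptor gene NOTCH4 read 46.3, below the floor, against 253, 244 and 121. These were the 2 called genes among 24 measured Notch genes, 4.17% in each direction.

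Several other higher genes encode metabolic, cytoskeletal or signalling proteins. PALMD, a palmdelphin of the paralemmin family, read 1061 in double-low cells and 63.6, 121 and 119 in double-high, E-cadherin-low CD133-high and E-cadherin-high CD133-low cells, an 8.80-fold margin, and another of its probe sets passed 2-fold too. ZC3H12C, an RNA-binding protein of the Regnase family, read 649 against 34.0, 44.2 and 126. RADX, a single-stranded DNA binding protein of replication forks, read 388 against 89.9, 6.01 and 103. These 3 had margins of 8.80-fold, 5.14-fold and 3.77-fold. NNMT, which methylates nicotinamide, read 210 and PPARGC1A, a coactivator of mitochondrial genes, read 190, each with the other 3 arrays below the floor. CDH19, a type II cadherin of neural crest derivatives, read 339 against 72.3, 62.6 and 112. ADM, the hormone adrenomedullin that hypoxia raises, read 4417 against 364, 534 and 1875. It was the 1 called member of 29 measured hypoxia and glycolysis genes (3.45%, beside 0.476% of all measured genes). In that list the double-low array was the highest for 3 genes and the lowest for 11. SOAT1, which esterifies cholesterol, read 4439 against 1939, 1660 and 1250, and was the 1 higher gene with a strong signal (at least 1250) on every array. Neither of its 2 other probe sets passed 2-fold. In 1 of them the double-low array was not the highest, at 1542 against 1504, 1310 and 2204.

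Further genes of the 25 with the largest margins were TUBA3FP (479 in double-low cells), TTC38 (204), FBXL7 (767), SEMA6D (481), DCDC2B (163), CALCB (622) and LDB3 (1023). SEMA6D, a semaphorin, and CALCB, a calcitonin-related peptide gene, had E-cadherin-high CD133-low cells next, at 168 and 239. TTC38 had no other probe set in the same direction. CD4, best known from helper T cells, met the rule at 123 over signals below the floor on the other 3 arrays. Leukocyte markers were not higher alongside it: PTPRC read 505 in double-low cells against 1246, 1102 and 346, CD14 was below the floor on all 4 arrays, CD3E was below it on the double-low array, and the 17 leukocyte markers summed to 1404 against 1443 to 2186.

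The 161 lower genes were 1.14% of the measured genes, and double-low was the array with the most lower genes, against 72 in double-high, 85 in E-cadherin-low CD133-high and 104 in E-cadherin-high CD133-low cells. Of the 161, 124 were above the floor on all 4 arrays and 37 were at the floor on the double-low array. The median margin was 2.32-fold, and 12 genes reached 4-fold. The nearest array was E-cadherin-high CD133-low for 106 genes, E-cadherin-low CD133-high for 42 and double-high for 13. Of 82 lower genes with another probe set above the floor, 59 had one in the same direction against all 3, 25 had one that passed 2-fold, and 5 had one in the opposite direction.

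**Figure D3:**
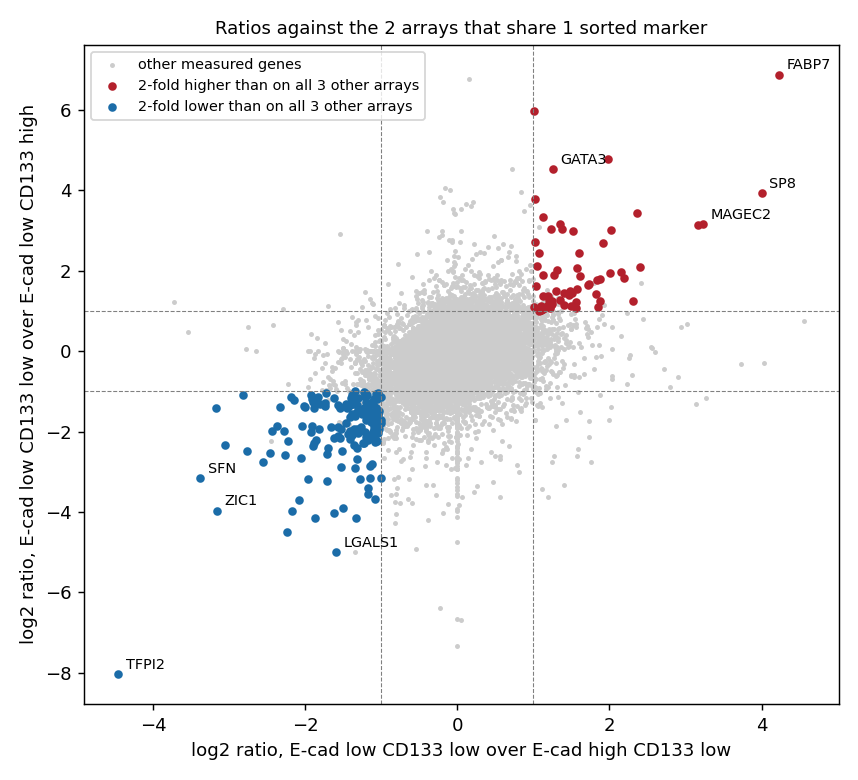
Log2 ratio of each measured gene in double-low cells over E-cadherin-high CD133-low cells (x axis) and over E-cadherin-low CD133-high cells (y axis); dashed lines mark 2-fold, and coloured points are the 67 higher and 161 lower genes. FABP7 lies at the upper right (4.23 and at least 6.88) and TFPI2 at the lower left (at least 4.45 and 8.04 below).

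The lower set included genes of epithelial cells. SFN, which encodes stratifin, an epithelial adaptor protein induced by p53, read 1054 in double-low cells and 16199, 9382 and 10964 in double-high, E-cadherin-low CD133-high and E-cadherin-high CD133-low cells, an 8.90-fold margin. Its other 2 probe sets passed as well, and one of them read 486 in double-low cells against 8025 to 14497. MUC1, a membrane mucin of epithelial surfaces, read 241 against 2481, 949 and 1168, a margin of 3.94-fold. LMO7, an actin-linked protein of adherens junctions, read 80.4 against 2109, 450 and 546. SFN and LMO7 are not in the list of epithelial genes counted below. For MUC1 and LMO7 the double-high array was the highest and the other E-cadherin-low array was the nearest.

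A few components of desmosomes and tight junctions met the rule. JUP, the plakoglobin of desmosomes and adherens junctions, read 522 against 2132, 1266 and 1743 in double-high, E-cadherin-low CD133-high and E-cadherin-high CD133-low cells. DSG2, a desmosomal cadherin, read 690 against 5303, 1459 and 4872. TJP3, a tight-junction scaffold, read 117 against 496, 430 and 347. KRT8, a keratin of simple epithelia, read 406 against 1334, 1081 and 1493, while its partner KRT18 read 10434, inside the range of the others (7605 to 15306). MUC1, TJP3, JUP and DSG2 were the 4 lower members of 39 measured epithelial genes (10.3%, beside 1.14% of all measured genes), and 0 were higher. In that list the double-low array was the lowest for 14 genes and the highest for 6, with a median log2 ratio over the mean of the other 3 of -0.36. The median over E-cadherin-low CD133-high cells alone was 0. EPCAM read 3760 in double-low cells, the lowest of the 4, against 6554 to 12326, a difference short of 2-fold from E-cadherin-low CD133-high cells. Several junction genes were lowest in E-cadherin-low CD133-high cells instead, such as MAL2, at 664 in double-low and 283 in E-cadherin-low CD133-high cells, and DSP, at 705 and 505.

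Promoters of SFN, MUC1 and DSG2 are printed because they hold CACCTG, the E-box that ZEB1 binds, and belong to the lower epithelial genes. They cover the 250 bases before the RefSeq start in GRCh38.p14, 5′ to 3′ on the gene's strand, with CACCTG or its complement CAGGTG in capitals. SFN lies at chr1:26862899-26863148 on the plus strand, MUC1 at chr1:155192916-155193165 on the minus strand and DSG2 at chr18:31497927-31498176 on the plus strand.
SFN: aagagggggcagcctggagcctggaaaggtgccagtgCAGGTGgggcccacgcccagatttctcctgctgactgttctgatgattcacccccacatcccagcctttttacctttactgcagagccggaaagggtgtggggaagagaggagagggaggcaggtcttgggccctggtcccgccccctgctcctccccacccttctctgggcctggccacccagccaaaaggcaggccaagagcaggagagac
MUC1: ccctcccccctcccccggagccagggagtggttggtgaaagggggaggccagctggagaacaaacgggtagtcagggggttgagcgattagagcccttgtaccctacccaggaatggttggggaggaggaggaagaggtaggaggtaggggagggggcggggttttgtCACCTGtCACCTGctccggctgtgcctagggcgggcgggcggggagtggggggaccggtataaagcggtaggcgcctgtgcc
DSG2: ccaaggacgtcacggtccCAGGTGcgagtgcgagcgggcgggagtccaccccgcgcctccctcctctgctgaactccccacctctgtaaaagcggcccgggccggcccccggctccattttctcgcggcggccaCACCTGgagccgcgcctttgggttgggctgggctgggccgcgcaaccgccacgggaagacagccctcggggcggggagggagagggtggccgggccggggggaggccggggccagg
SFN has 1 match, MUC1 has 2 side by side, and DSG2 has 2; the windows of JUP, TJP3 and KRT8 have 0. Of the 122 lower genes with a promoter in the table, 20.5% hold the motif on either strand, against 11.5% of the 52 higher genes, 16.1% of measured genes and 17.5% of all promoters. A match is a string of letters and was not tested as a binding site.

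ZIC1, a zinc-finger factor of the developing cerebellum and neural crest, had the largest margin of the lower set, just ahead of SFN. It read 25.5 in double-low cells, below the floor, against 1088, 896 and 508 in double-high, E-cadherin-low CD133-high and E-cadherin-high CD133-low cells, a margin of at least 8.90-fold. Its 1 other probe set above the floor did not share the direction. Of 56 measured germ layer and positional factors, ZIC1 and IRX4 were lower (3.57%) and DLX2 was higher (1.79%). Of all measured genes 1.14% were lower and 0.476% higher. Within the list of these factors the double-low array was the highest for 17 and the lowest for 15. IRX4, of the heart ventricle, read 117 against 449, 464 and 311, and NKX2-8, a homeobox factor outside that list, read 26.1, below the floor, against 236, 229 and 216. NKX2-1, the thyroid and lung factor, was not a member: it read 83.1 against 215, 117 and 70.4.

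Of the class II antigen presentation genes, HLA-DPA1, HLA-DMA and HLA-DQB1 were lower. HLA-DPA1, a class II alpha chain, read 57.5 in double-low cells against 318, 197 and 159 in double-high, E-cadherin-low CD133-high and E-cadherin-high CD133-low cells, but neither of its 2 other probe sets above the floor shared the direction. HLA-DMA, which helps load peptides onto class II molecules, read 265 against 882, 813 and 586. HLA-DQB1, a class II beta chain, read 189 against 499, 546 and 444, and 4 of its 5 other measured probe sets shared the direction. HLA genes are polymorphic and alike, so their probe sets can share signal. These were the 3 lower members of 23 measured genes of the list, for which the double-low array was the lowest 15 times and the highest 0 times, with a median log2 ratio of -0.67. With the mean over probe sets, or without shared probe sets, 1 gene of the list was lower. The class II genes CD74, HLA-DMB, HLA-DPB1 and HLA-DRB1 did not meet the rule. Among class I genes, HLA-B read 9028 against 11308 to 11988 and HLA-C read 10959 against 10625 to 17514. B2M, the class I light chain, read 24252, within the 23217 to 27710 of the others.

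Genes of sterol and lipid synthesis were low without mostly reaching the rule. FDPS, which makes farnesyl diphosphate, read 6868 in double-low cells against 18581, 14087 and 14157 in double-high, E-cadherin-low CD133-high and E-cadherin-high CD133-low cells. MVD, the mevalonate diphosphate decarboxylase, read 26.5, below the floor, against 285, 139 and 126. These were the 2 lower members of 24 measured genes (8.33%, beside 1.14% of all measured genes). The double-low array was nevertheless the lowest for 18 of the 24 and the highest for 0, with a median log2 ratio of -0.63. HMGCS1, an early enzyme of the pathway, read 1012 against 5291, 5778 and 1544, and INSIG1, a sterol sensor, read 2225 against 7440, 8275 and 3657. In both, the E-cadherin-high CD133-low array was the nearest and within 2-fold. Of other lipid genes outside the list, the sterol transfer protein OSBPL10 read 699 against 7399, 4037 and 3870, a margin of 5.54-fold that rests on a probe set shared between transcripts. SULT2B1, a cholesterol sulfotransferase, read 49.4, below the floor, against 214, 277 and 212, and APOE, the lipoprotein ligand, read 4441 against 13163, 11832 and 9312.

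**Figure D4:**
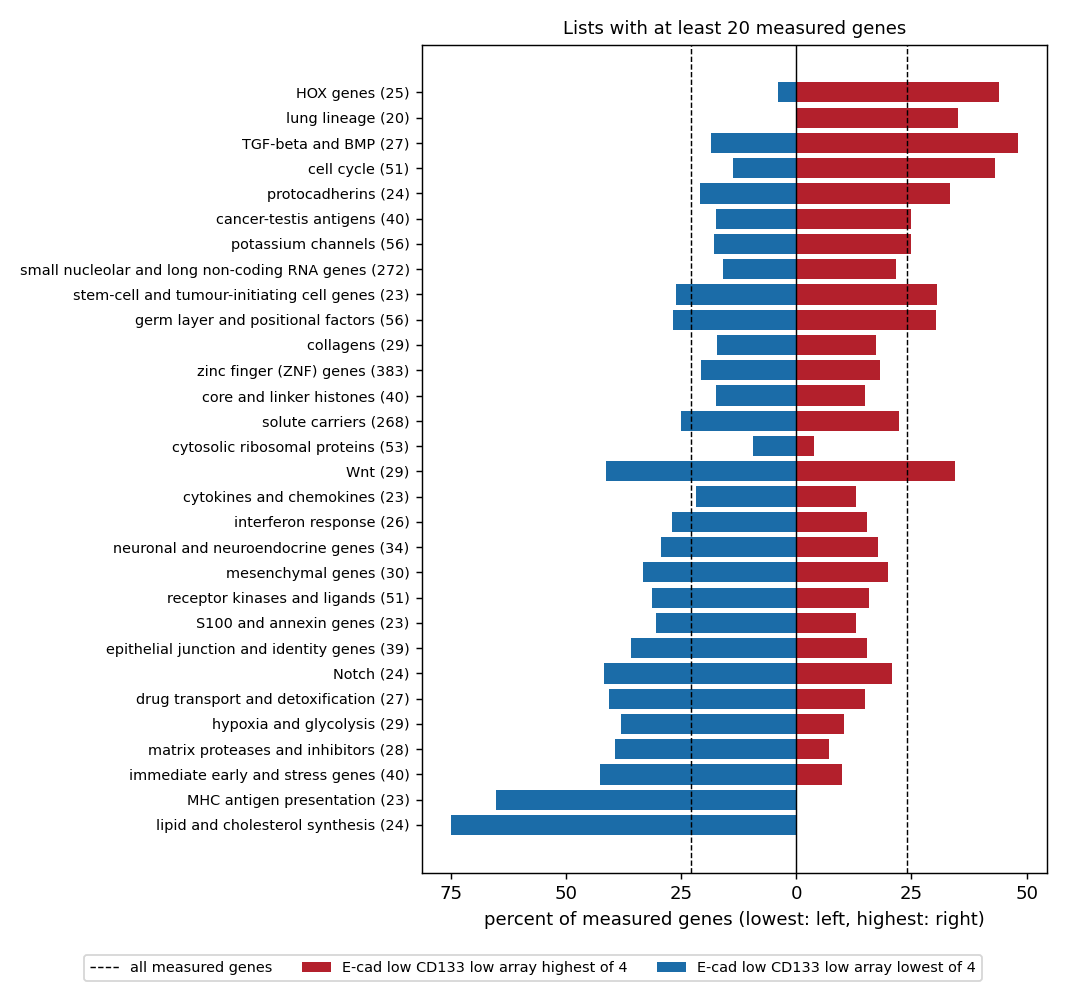
Share of the measured genes of each list of at least 20 genes for which the double-low array was the highest of the 4 (right) or the lowest (left), in percent, with the share over all measured genes as dashed lines (24.1% and 22.7%). The lipid and MHC lists extend farthest to the left (75% and 65.2%) and the TGF-beta and BMP list farthest to the right (48.1%).

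Some protease inhibitors were lower. TFPI, the inhibitor of tissue-factor coagulation, read 2135 in double-low cells against 20252, 15938 and 5444 in double-high, E-cadherin-low CD133-high and E-cadherin-high CD133-low cells, and all 4 of its other measured probe sets shared the direction. TIMP2, a metalloprotease inhibitor, read 1306 against 6949, 6416 and 3088, with 2 other probe sets that passed. SERPINI1, the neuroserpin, read 173 against 3390, 2824 and 533. For these 3 genes both CD133-high arrays were the highest. TFPI2 had the widest spread, with 35.6 in double-low cells, below the floor, 121 in double-high, 1251 in E-cadherin-high CD133-low and 14974 in E-cadherin-low CD133-high cells. Its other probe set read 57.8 in double-low and 54.9 in double-high cells, so the difference between these 2 arrays was not seen in it. Altogether 4 of 28 measured matrix protease and inhibitor genes were lower (14.3%, beside 1.14% of all measured genes) and 0 were higher. The double-low array was the highest for 2 of the 28. SERPING1, the C1 inhibitor, read 45.3, below the floor, against 163 to 434, and the complement gene C3 read 56.9, also below the floor, against 481, 153 and 515.

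Growth factor receptors and guidance molecules also appeared. ERBB3 read 623 in double-low cells against 2213, 2385 and 1791 in double-high, E-cadherin-low CD133-high and E-cadherin-high CD133-low cells, and ERBB4, a related receptor kinase, read 150 against 329, 461 and 323. Another ERBB4 probe set read 70.3 in double-low cells against 39.3, 48.7 and 154 in the same order, so it did not share the direction. ERBB3 and ERBB4 were the 2 called genes among 51 measured receptor kinases and ligands, both lower (3.92%, beside 1.14% of all measured genes). SEMA3A, a secreted repellent of axons, read 206 against 1811, 2695 and 875, and its other 2 measured probe sets passed. LGALS1, the carbohydrate-binding galectin-1, read 584 against 15831, 18772 and 1764. CAV1, the coat protein of caveolae, read 1248 against 5641, 2771 and 5681. It was the 1 called member of 30 measured mesenchymal genes (3.33%, beside 1.14% of all measured genes). Fibroblast markers, 8 of 12 measured, held 0 called genes, and the double-low array was the lowest for 6 of the 8. Their summed signal was 18239 against 25075 to 32854, and their median log2 ratio over the mean of the other 3 was -1.14. By array the median was -0.67 over double-high, -2.03 over E-cadherin-low CD133-high and -0.30 over E-cadherin-high CD133-low cells. The -1.14 became -0.50 with the mean over probe sets. Without shared probe sets it was -0.26, and the double-low array was the lowest for 1 of 6. Among the fibroblast markers LUM read 131 against 228 to 1390, and PDGFRB was below the floor on all 4 arrays. Their part in the lower set was not tested. For LGALS1 the nearest array was E-cadherin-high CD133-low, and for CAV1 it was E-cadherin-low CD133-high.

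Stress-response and growth-control genes made up a further group. NR4A2, an orphan nuclear receptor and immediate early gene, read 2060 in double-low cells against 10340, 18316 and 4560 in double-high, E-cadherin-low CD133-high and E-cadherin-high CD133-low cells. GADD45A, a growth-arrest gene, read 663 against 1600, 2852 and 1482. ETV1, an ETS factor downstream of ERK, read 4225 against 19590, 10498 and 10923, and all 4 other measured probe sets shared the direction. These were the 3 lower members of 40 measured immediate early and stress genes (7.5%, beside 1.14% of all measured genes). In that list 0 were higher, and the median log2 ratio was -0.56. That median was -0.22 with the mean over probe sets and -0.19 without shared probe sets. The double-low array was the lowest for 17 of the 40, and for 8 of 30 without shared probe sets. CDKN1C, an inhibitor of cyclin-dependent kinases, read 142 against 570, 520 and 302. APOBEC3B, a DNA cytidine deaminase, read 481 against 6552, 8525 and 1757. GSTM3, a glutathione transferase, read 102 against 1466, 949 and 334, and ALDH1A3, which makes retinoic acid, read 211 against 463, 561 and 494. GSTM3 and ALDH1A3 were the 2 lower of 27 measured drug transport and detoxification genes (7.41%).

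The other genes of the 25 with the largest lower margins were SEL1L3 (222 in double-low cells), ADGRL2 (96.7), POLD4 (33.3), ICA1 (342), ARHGAP18 (63.4), PDE3A (50.5), CRIP2 (45.5), GPD2 (632), WDR72 (480), KCNK6 (53.3), CCDC24 (16.2), CTHRC1 (763), DHRSX (13.8) and LINC00324 (65.3). Of these, POLD4, PDE3A, CRIP2, KCNK6, CCDC24 and DHRSX were below the floor on the double-low array. ADGRL2, an adhesion receptor of the latrophilin family, had the double-high array far above the rest at 2530. GPD2, the mitochondrial glycerol phosphate dehydrogenase, read 5129 and 5773 in the CD133-high arrays and 2465 in E-cadherin-high CD133-low cells. TCF3, an E-protein that represses CDH1, met the rule by 1 probe set (1961 against 4725 to 7316), but of its 13 other probe sets above the floor 0 shared that direction and 7 had the opposite one.

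Grouped by name, gene families held members at various shares, to be read beside the 1.14% of measured genes that were lower. Of 383 measured ZNF zinc-finger genes, 4 (1.04%) were lower (ZNF76, ZNF226, ZNF527 and ZNF426) and 0 were higher. Of 268 solute carriers, SLC44A3, a choline transporter-like protein, and SLC27A1, a fatty acid transporter, were lower, at 120 and 112 against at least 257 and 234. Of 40 histone genes, H2AC14 and H3C8 were lower, and of 56 potassium channel genes KCNK6 was. The cadherin family had 1 member each way, CDH19 higher and CDH24 lower. Of 272 non-coding RNA genes, LINC00324, LINC00342, LINC01315 and LINC02615 (1.47%) were lower, and the probe set of LINC00342 had a counterpart in the opposite direction.

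Some members lay beside each other in chromosome order. FABP7 and its neighbour SMPDL3A, a phosphodiesterase, were both higher, SMPDL3A with 556 against 159, 151 and 254 in double-high, E-cadherin-low CD133-high and E-cadherin-high CD133-low cells. SP8 and its neighbour ABCB5, a transporter, were both higher, ABCB5 with 127 over signals below the floor. The next genes out, PKIB and SP4, were not members, nor were LDOC1 and SLITRK4 around the MAGEC pair. DPP10 and DPP10-AS1 were higher together, at 132 and 826.

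**Figure D5:**
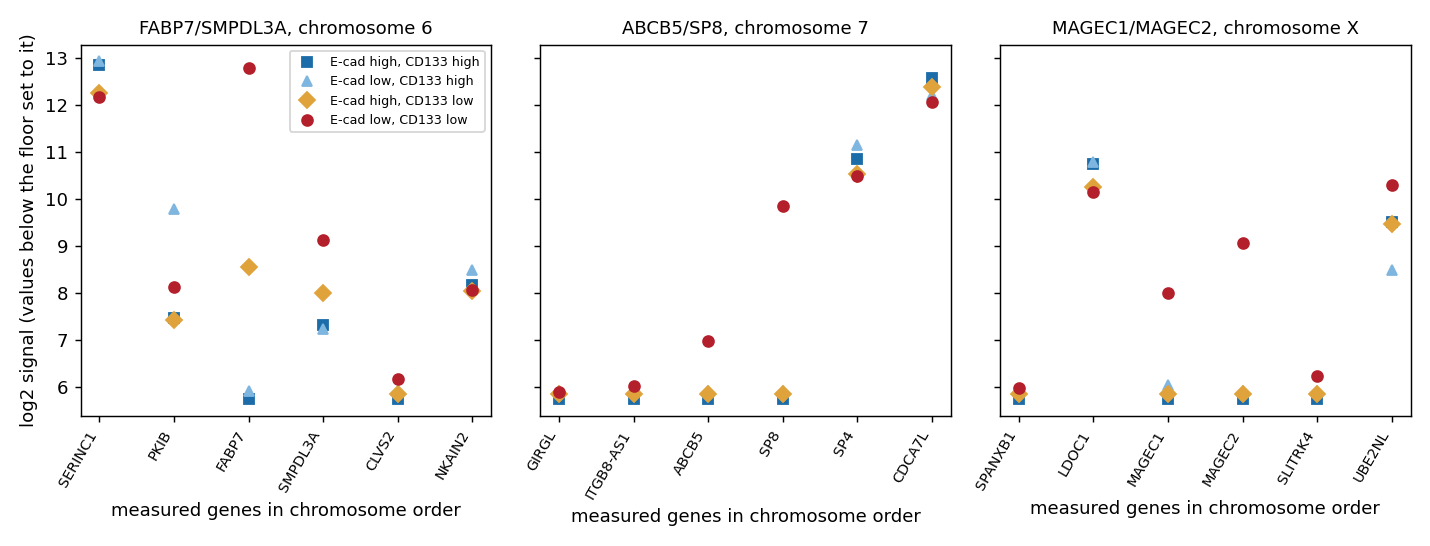
Signals of 6 measured genes in chromosome order around FABP7, SP8 and MAGEC2, on the log2 scale, with signals below the floor set to it; each point is 1 array. The double-low points stand at least 2-fold apart for the 2 middle genes of each panel. For the genes on the outside they lie less than 2-fold from the nearest other array. The widest of these was UBE2NL, at 1256 against 729, 359 and 714 on the double-high, E-cadherin-low CD133-high and E-cadherin-high CD133-low arrays.

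Lower genes formed neighbouring pairs as well. KLK7 and KLK8, secreted kallikrein proteases, read 188 and 236 in double-low cells, against 448 to 559 and 562 to 614 on the other arrays, and the second probe set of each passed too. ARHGAP18 and L3MBTL3 lay side by side, as did FAM111A and FAM111A-DT, and ICA1 and ICA1-AS1. The pairs NR4A2 and GPD2, MVP and CDIPTOSP, TNFSF9 and C3, HLA-DMA and HLA-DPA1, NOTCH4 and HLA-DQB1, and ASMTL and DHRSX were 2 or 3 measured genes apart. ASMTL-AS1, higher at 182 against at most 90.8, was the 1 member with a neighbour called in the opposite direction, ASMTL, which read 1723 against 3624 to 3632. Antisense pairs such as these can share signal if probe sets do not separate the strands, and this was not tested.

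The rule does not set the order of the other 3 arrays, although it uses their signals, so the shares that follow are descriptions. Of the 67 higher genes, 18 were at least 2-fold higher in E-cadherin-high CD133-low than in double-high cells, 1 was at least 2-fold lower and 48 differed by less. Over all measured genes 3.24% were higher and 5.04% lower in that comparison, against 26.9% and 1.49% of the 67. Between the CD133-high arrays, 8 of the 67 (11.9%) were at least 2-fold higher in E-cadherin-low cells, 2 were lower and 57 differed by less, where 3.81% of measured genes were higher and 2.53% lower. Of the 161 lower genes, 48 (29.8%) were at least 2-fold lower in E-cadherin-high CD133-low than in double-high cells, 1 was higher and 112 differed by less. Between the CD133-high arrays, 17 of the 161 (10.6%) were lower in E-cadherin-low cells, 4 were higher and 140 differed by less. These comparisons share the double-high array.

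Near the threshold, the last genes inside the higher set were ASMTL-AS1 at 2.005-fold and MCOLN3 and MSANTD2 at 2.01-fold, and the nearest outside were TPTEP1 at 1.996-fold, LOC101928844 at 1.99-fold and HCCAT5 at 1.98-fold. In the lower set, TNFSF9 at 2.0002-fold and GPLD1 and MANSC1 at 2.01-fold were just inside, and CAMKV at 1.996-fold and SLC50A1 and BTN3A2 at 1.99-fold were just outside. MCOLN3, an ion channel of endolysosomes, shows what the margin leaves out: it read 3791 in double-low and 1890 in E-cadherin-high CD133-low cells, but 91.4 in double-high cells and 28.4, below the floor, in E-cadherin-low CD133-high cells.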

How the data were processed

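The authors deposited 1 intensity per probe set and array on a linear scale, made with MAS5 per the submitters' processing notes; its version, detection calls and scan batches were not given in the sources used here. Of 54675 probe sets, 41097 had 1 gene symbol in the platform annotation, 1801 had several (not used) and 11777 were unnamed here, including 62 controls. Gene IDs of 41043 matched RefSeq (GRCh38.p14), used for names, gene order and promoters, which matched 52 higher and 122 lower genes. Groups follow the labels.

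Ratios were taken after the floor, and a ratio with both arrays at the floor was 0. With 1 array per group there is no test. Named are the 25 genes of largest margin per direction (1 of the higher ones is not reported here), up to 8 called members per list (46 lists and name families), members within 3 measured genes of another, the 3 nearest the threshold on each side, and CDH1, PROM1, FABP7 and MAGEC2. Other genes (uncalled list members, neighbours, GATA2, SOAT1 and CD4 among them) were chosen after their values were seen. The members and lists were chosen with earlier results of these data known. The code of the rule was checked on simulated data with planted changes well above 2-fold, in genes well above the floor. That check does not cover members near the threshold or near the floor. Alternatives changed scaling, floor, fold, probe set choice and the arrays compared. Python 3.11.15, numpy 2.4.6, pandas 2.3.3 and matplotlib 3.10.9 were used.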

Additional observations from a re-analysis of the deposited data

Results flagged for a closer look

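7 members had opposite effects of 1 sorted marker in cells that differ in the other marker, each past 2-fold; every effect is 1 array over 1 array, and the difference was not tested. TFPI2, a protease inhibitor, had the widest: E-cadherin-low over E-cadherin-high cells was 6.95 on the log2 scale among CD133-high cells and -4.45 or lower among CD133-low cells, and CD133-high over CD133-low was at least 8.04 among E-cadherin-low and -3.37 among E-cadherin-high cells. The other 3 lower genes had the same pattern for E-cadherin. PDE3A, a phosphodiesterase, was at 2.42 among CD133-high and -2.24 or lower among CD133-low cells. For both genes the double-low array was at the floor, so ratios that use it are bounds. EGR4, an immediate early factor, was at 1.503 and -1.17, and the divergent transcript STX17-DT at 1.49 and -1.13. By the probe sets used, all 4 were highest in E-cadherin-low CD133-high cells and lowest in double-low cells. The other STX17-DT probe set did not share this order. Its signal in E-cadherin-low CD133-high cells was below the floor and below both E-cadherin-high arrays, so the opposite effects of E-cadherin were not seen in it. In the other TFPI2 probe set the double-high array, and not the double-low array, was the lowest.

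Of the higher genes, the ligand gene BMP7 had the reverse order for E-cadherin, -1.61 among CD133-high and 1.02 among CD133-low cells, and DPP10-AS1 had -1.62 or lower (E-cadherin-low CD133-high cells at the floor) and 1.02. RCBTB2 had a CD133-high over CD133-low ratio of 1.26 among E-cadherin-high and -1.24 among E-cadherin-low cells.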

How the results depend on the processing

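No paired analysis was possible because each group has 1 array and the labels carry no replicate numbers. Higher and lower counts (67 and 161 as reported) depended most on the floor: 547 and 863 with none, 324 and 432 at the 25th percentile, 39 and 84 at the 65th. They were 301 and 494 at 1.5-fold and 16 and 30 at 3-fold. With the mean over probe sets they were 36 and 96, of which 29 and 93 were among the reported genes. Against only the 2 arrays other than E-cadherin-low CD133-high they were 128 and 247, and other than E-cadherin-high CD133-low 251 and 583. Quantile normalization (75 and 150), equal medians (71 and 152), the probe set highest on any array (75 and 164), leaving out shared probe sets (61 and 113) and leaving out the double-high array (92 and 185) stayed within 1.5 times. For 7 named genes the double-low array was no longer the outermost of the 4, and the margin (log2) became negative: with the mean over probe sets, ASMTL-AS1 (-0.051), LINC00342 (-0.21) and TCF3 (-0.031); without shared probe sets, ASMTL-AS1 (-1.23), ICA1 (-0.059), LINC00342 (-0.30), OSBPL10 (-0.45), TCF3 (-0.25) and TFPI2 (-0.075); with the probe set highest on any array, LINC00342 (-1.68); and with the 65th-percentile floor, SMAD7 (-0.031). Members whose margin became exactly 0 are not in that count. With them, the double-low array was not the outermost for 14 of the 67 higher and 35 of the 161 lower genes at the 65th-percentile floor. Without shared probe sets this held for 6 of 62 higher and 17 of 132 lower genes that kept a probe set. The cause was not tested. With 1 array per group and signals near the floor for many higher genes, small ratios have no error estimate.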

Other observations

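HOX genes held no member, yet their signals were high in double-low cells. Of 25 measured HOX genes the double-low array was the highest for 11 and the lowest for 1, with a median log2 ratio of 1.87 over double-high, 1.61 over E-cadherin-low CD133-high and 0.03 over E-cadherin-high CD133-low cells. The median ratio between the CD133-low arrays was thus near 0, and the rule asks for 2-fold against each array.

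Of 51 measured cell cycle genes the double-low array was the highest for 22 and the lowest for 7. Their median log2 ratio over the mean of the other 3 was 0.24. The 1 called gene, CDKN1C, was lower (1.96%, beside 1.14% of all measured genes). Replication genes were among those highest here, such as MCM3 at 3016 against 2048, 1088 and 2004 in double-high, E-cadherin-low CD133-high and E-cadherin-high CD133-low cells, and MCM4 at 4178 against 2684, 2591 and 2199. The cyclin gene CCND2, not a member, read 11.8, below the floor, against 418, 4749 and 66.5 in the same order.

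Few cancer-testis antigens beside the MAGEC pair were set apart. Of 40 measured, 3 (7.5%) were higher, DPPA2 included, and 0 were lower, beside 0.476% and 1.14% of all measured genes. The abundant MAGEA4 read 12924 against 12136 to 15039. TEX15, a germ-cell gene, read 2244 against 683, 1172 and 479, a margin just under 2-fold (0.94 on the log2 scale).

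Chromosome 19 held 21 of the 161 lower genes (13.04%) and 1 of the 67 higher genes, beside 7.07% of measured genes. Chromosome 6 held 17 of the lower genes (10.56%) and 4 of the higher genes, beside 5.46% of measured genes.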
